A study of Mus musculus with 6 samples.

Results

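The oocyte transcription factors described here are Figla, Nobox, Sohlh1, Sohlh2 and Lhx8, taken by symbol from a table of read counts. All 5 had a row among the 18649 named rows kept. Poly(A) RNA of mouse embryos at the 2-cell stage had been sequenced in 3 control libraries (0 µM) and in 3 libraries of embryos whose G1-PLUS medium held 5 µM sodium arsenite, a salt of trivalent arsenic. The labels give no strain, no age of the embryos in hours and no number of embryos per library. The comparison asks how arsenite alters the RNA of the embryo while stored maternal transcripts give way to those of its own genome.

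These factors switch on the gene program of the growing oocyte. Sohlh1 and Sohlh2 encode basic helix-loop-helix (bHLH) proteins of early germ cells, Figla a bHLH protein that activates the zona pellucida genes from DNA motifs called E-boxes, Nobox a homeodomain protein, and Lhx8 a LIM homeodomain protein. In mice, ovaries without one of them lose their oocytes early, and several depend on others of the group for expression. The embryo inherits oocyte transcripts and degrades most of them by the end of the 2-cell stage.

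Library totals lay between 7754037 and 8515078 counts, and 3 counts, the floor used here, were 0.352 to 0.387 CPM (counts scaled to library size) of those totals. All other CPM are also scaled by edgeR's TMM factors, so that a level is relative to the other genes of its library. Whether replicates came from separate cultures is not in the labels, so a p-value here measures the spread between libraries only, and that spread may be technical. In bulk RNA, fewer embryos that hold a transcript and less of it per embryo cannot be told apart. The tissue label was checked by markers. All 10 listed 2-cell transcripts had a row, with a summed level of 1202 to 1372 CPM in controls and 1833 to 3815 CPM with arsenite. Of 12 oocyte transcripts 11 had a row, at 1234 to 2015 and 5378 to 8617 CPM, led by Btg4 and Bmp15. That list includes the reported targets Zp3, Gdf9 and Bmp15, of which Zp3 lay lower with arsenite. Of 17 markers of cumulus and granulosa cells, the somatic cells around the egg, 11 had a row, at a summed 43.3 to 61.8 CPM in controls and 45.6 to 65.7 CPM with arsenite, led by Amhr2 and Kitl. Of 10 markers of sperm and spermatogonia, which also use Sohlh1 and Sohlh2, 8 had a row, at 23.3 to 29.5 and 22.6 to 57.95 CPM, led by Gfra1 and Nanos3. Markers of the blastocyst, a later stage, of which 8 of 9 had a row, did not overlap in sum, at 7.83 to 20.2 CPM in controls and 31.4 to 83.4 CPM with arsenite. The highest sum, in arsenite replicate 2, came mostly from Krt18, at 42.9 CPM there against 0.38 and 1.31 CPM in arsenite replicates 1 and 3. Sox17 was at 0 in controls and in arsenite replicate 1 and was not tested. All 6 tested had a log2 fold change above 0, and 1 of them, Gata3, was called higher. The part of these markers in the results was not tested.

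Nobox was higher with arsenite, and the 3 bHLH genes were at or near the limit of detection in controls. Lhx8 lay higher in each arsenite library without passing the main, unpaired test, though it passed with the replicate number as a block. Nobox rose from 9.60 ± 2.501 to 63.2 ± 16.9 CPM (mean ± SD, n = 3 each), a 6.58-fold ratio of means. It was the only one of the 5 past the threshold, an adjusted p under 0.05 in edgeR's quasi-likelihood test with Benjamini-Hochberg adjustment over all 12582 genes tested, of which 9.43% were called higher and 7.26% lower. No member was called lower, also none at an unadjusted p under 0.05 or by DESeq2 or limma voom (0 in each). Nobox, Lhx8 and Sohlh2 passed the count filter, and in each of them the 3 arsenite libraries lay above the 3 controls, as for 21.9% of genes tested (41.6% did not overlap in either direction). Sohlh2 passed the filter through the arsenite libraries alone, so that a gene of its level could only enter by being higher there. Figla and Sohlh1 did not pass and were not tested.

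**Figure D1:**
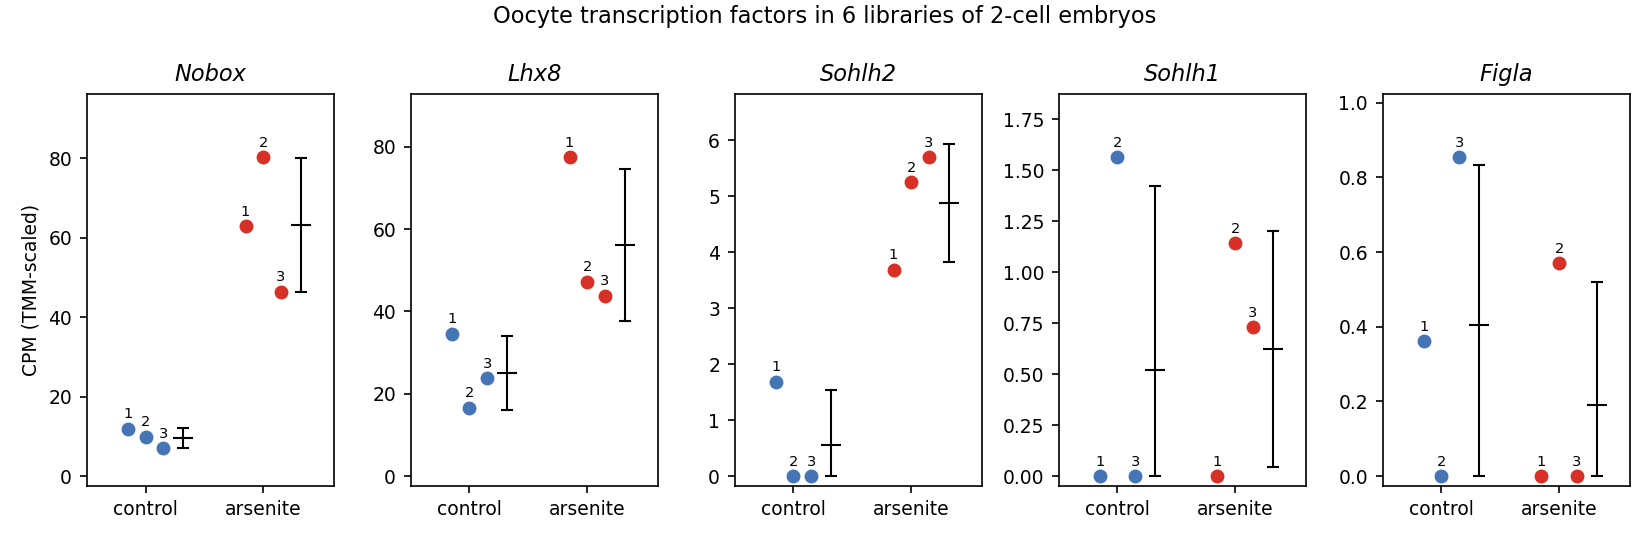
Level of each factor in every library, in TMM-scaled CPM on linear axes that differ between panels. Points are libraries labelled by replicate number, and bars are the mean and SD of 3 libraries, with the lower end stopped at 0. Nobox, Lhx8 and Sohlh2 do not overlap between groups, while Sohlh1 and Figla do.

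Nobox, a homeobox gene needed for follicles to grow past the primordial stage (chromosome 6, 43303674 to 43310072, minus strand, mm10), had 99, 89 and 57 counts in control replicates 1, 2 and 3. It had 494, 703 and 318 counts in arsenite replicates 1, 2 and 3. The lowest arsenite library, replicate 3 at 46.4 CPM, was above the highest control, replicate 1 at 11.9 CPM. The log2 fold change was 2.72 ± 0.39 (SE, with an edgeR adjusted p = 0.00463), and 329 of the 12582 genes tested had a larger one. Within the pairs of libraries that share a replicate number, the arsenite library was higher by 2.37, 2.98 and 2.70 on a log2 CPM scale with a prior count of 2. Leaving out any one of the 6 libraries gave 2.43 to 2.90, with edgeR adjusted p from 0.00720 to 0.0358.

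Lhx8, a LIM homeobox gene required for oocytes to survive after birth (chromosome 3, 154306288 to 154330560, minus strand), was the most abundant of the factors in controls. Control replicates 1, 2 and 3 held 287, 149 and 195 of its counts, and the libraries with arsenite 609, 414 and 300 in that order, which is 25.0 ± 9.02 and 56.2 ± 18.5 CPM (SD, n = 3 each). The lowest arsenite library stood at 43.8 CPM and the highest control at 34.6 CPM, so the gap between the groups was smaller than the range within either. The log2 fold change of 1.17 ± 0.39 (SE) did not pass (edgeR adjusted p = 0.0628). With the replicate number as a block it passed, at 1.18 ± 0.30 (SE, with an edgeR adjusted p = 0.0200), where 13.4% of genes were called higher and 12.6% lower. The arsenite library of each pair was higher by 1.16, 1.49 and 0.87 on the log2 CPM scale.

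Sohlh2, a bHLH gene of germ cells and early follicles (chromosome 3, 55182044 to 55209957, plus strand), had 14 counts in control replicate 1 and 0 in control replicates 2 and 3. It had 29, 46 and 39 counts in arsenite replicates 1, 2 and 3, which is 3.69, 5.25 and 5.69 CPM. Every arsenite library was thus above the one control in which the gene was seen, at 1.69 CPM. The log2 fold change of 3.09 ± 1.37 (SE) did not pass (edgeR adjusted p = 0.138, and 0.0772 with the block). Its mean of 4.88 CPM with arsenite was 8.68 times the control mean of 0.562 CPM, which rests on control replicate 1 alone.

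Sohlh1, its partner in the same germ cells (chromosome 2, 25842995 to 25847248, minus strand), had 0, 14 and 0 counts in control replicates 1, 2 and 3. With arsenite it had 0, 10 and 5 in the same order. Figla (chromosome 6, 86016494 to 86020996, plus strand) had 3, 0 and 7 counts in controls and 0, 5 and 0 with arsenite. Both were thus seen in both groups and absent from at least one library of each. Summed over 3 libraries, Sohlh1 had 14 counts in controls and 15 with arsenite, and Figla 10 and 5. A difference was not detectable at this depth: a fit with no count filter gave log2 fold changes of 0.17 ± 1.98 for Sohlh1 and −0.999 ± 2.23 for Figla (SE, with an edgeR adjusted p = 0.968 and 0.809). No exon of the 5 genes overlaps an exon of another gene in GENCODE M21.

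Per length the order of the factors was not the same in the 2 groups. In CPM per kb of the gene's joined exons, Lhx8 stood first in controls at 9.87 ± 3.56, then Nobox at 4.77 ± 1.24 (SD, n = 3 each), against a median of 4.07 over tested genes. With arsenite Nobox stood at 31.4 ± 8.39 and Lhx8 at 22.2 ± 7.31 CPM per kb (SD, n = 3 each), against a median of 4.43. This placed Nobox above 53.1% of tested genes in controls and above 85.5% with arsenite, and Lhx8 above 67.0% and 80.6%. Sohlh2 followed in arsenite libraries at 2.06 ± 0.45 CPM per kb (SD, n = 3). Figla, Sohlh1 and Sohlh2 in controls (means of 0.48, 0.40 and 0.24 CPM per kb) and Figla and Sohlh1 with arsenite (0.23 and 0.48) did not differ beyond their spread.

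The ratio of Nobox to Lhx8 within a library, which was not among the planned comparisons, uses no scaling between libraries. It largely restates the difference between the fold changes of these genes given above. Per kb it was 0.434, 0.752 and 0.368 in control replicates 1, 2 and 3, so Lhx8 was the higher of the pair in each control. It was 1.02, 2.14 and 1.33 in arsenite replicates 1, 2 and 3. The groups did not overlap, and the mean log2 ratio differed by 1.53 (control −1.02 ± 0.54, arsenite 0.51 ± 0.54, SD, n = 3 each). The two-sided exact permutation p of 0.1 is the lowest possible with 3 libraries a group, and stayed at 0.1 adjusted over 2 such ratios. With the longest transcript as the length the ratio in arsenite replicate 1 was 0.890, so there the order of the pair depends on the length used.

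**Figure D2:**
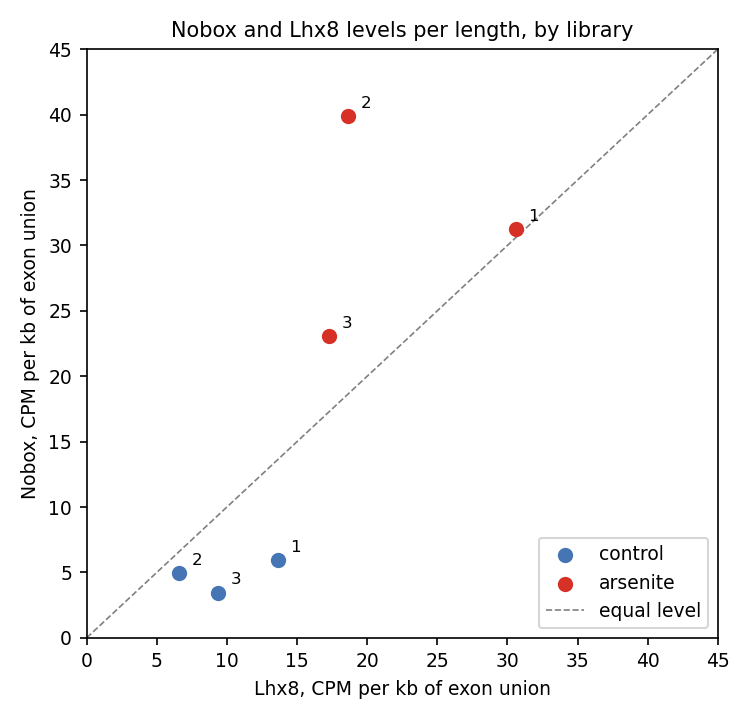
Level of Nobox against that of Lhx8 in each library, both in CPM per kb of joined exons on linear axes, with replicate numbers beside the points and a dashed line where both are equal. The 3 controls lie below the line, arsenite replicates 2 and 3 above it and arsenite replicate 1 on it, at a ratio of 1.02.

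E-boxes, written CANNTG, are the motif that bHLH proteins such as FIGLA bind. The bases before a listed start of each of the 3 measurable factors are shown to compare their E-boxes. Windows are the 250 bases before a start in RefSeq on GRCm38.p6, the assembly behind mm10, 5′ to 3′ on the gene's strand. CANNTG, which reads the same on both strands, is in capitals. It occurred in 66% of 27025 promoters. For Lhx8 only the first 150 bases are printed, since GENCODE M21 has an earlier start. The Nobox window lies inside the gene, which reaches 43310072 on the minus strand, so it is not upstream of the whole gene. The Figla window (chr6:86016941-86017190) likewise lies inside its gene, which begins at 86016494.
Nobox, chr6:43309555-43309804, minus strand: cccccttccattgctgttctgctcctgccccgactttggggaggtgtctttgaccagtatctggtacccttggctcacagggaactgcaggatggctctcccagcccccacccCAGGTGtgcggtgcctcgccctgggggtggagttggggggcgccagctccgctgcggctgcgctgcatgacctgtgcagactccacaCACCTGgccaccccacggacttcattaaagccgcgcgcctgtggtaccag
Lhx8, chr3:154330661-154330810, minus strand: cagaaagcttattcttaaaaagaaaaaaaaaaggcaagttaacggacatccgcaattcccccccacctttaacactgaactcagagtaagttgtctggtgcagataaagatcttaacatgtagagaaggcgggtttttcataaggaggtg
Sohlh2, chr3:55181794-55182043, plus strand: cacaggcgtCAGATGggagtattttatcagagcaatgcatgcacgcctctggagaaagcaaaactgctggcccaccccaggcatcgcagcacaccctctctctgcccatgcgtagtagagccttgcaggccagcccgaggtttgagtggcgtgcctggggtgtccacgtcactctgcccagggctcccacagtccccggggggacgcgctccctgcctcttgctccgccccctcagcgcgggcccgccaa
The Nobox window held 2 E-boxes, whose first bases lie at −137 and −50 from the start used, the Sohlh2 window 1, and the whole Lhx8 window 0. The windows of Figla and Sohlh1 held 2 and 5, and 3 of the 5 in Sohlh1 were CACGTG, a form of CANNTG that 6.05% of promoters held. TAATTG and TAATTA, forms bound by NOBOX, and TGATTG, bound by LHX8, were searched on both strands and occurred in 0 of the 5 windows, against 7.34%, 4.90% and 13.0% of all promoters. A match is a description of the letters and says nothing on binding.

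Partners of the bHLH factors were counted against the 9.43% of all genes tested that were called higher and the 7.26% called lower. Of the 3 E proteins, the broadly expressed partners with which FIGLA binds DNA, 1 rose and 0 fell (median log2 fold change 0.30, against 0.07 over all genes tested). Tcf12 rose from 30.5 ± 2.36 to 63.4 ± 15.8 CPM (mean ± SD, n = 3 each, with an edgeR adjusted p = 0.0492), a call lost when any one library was left out (edgeR adjusted p up to 0.160). Tcf3 stood at 13.1 ± 8.22 and 12.9 ± 1.23 CPM and Tcf4 at 6.85 ± 1.56 and 8.43 ± 7.23 CPM (SD, n = 3 each), with overlapping groups. Of the 4 Id genes, whose proteins bind E proteins and keep them off DNA, 1 rose and 0 fell (median 0.72). Id4 rose from 3.69 ± 2.70 to 18.9 ± 6.83 CPM (mean ± SD, n = 3 each, with an edgeR adjusted p = 0.0476), again a call lost without any one library (edgeR adjusted p up to 0.115). Id2 had a log2 fold change of 1.498 ± 0.50 (SE, with an edgeR adjusted p = 0.0607) and passed with the block (edgeR adjusted p = 0.00913). Id1 and Id3 had log2 fold changes of −0.06 ± 0.76 and −0.99 ± 0.78 (SE).

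LIM homeodomain proteins act through the adaptor LDB1, for which LIM-only (LMO) proteins compete and which SSBP proteins stabilize. Of 10 genes of this group 7 were tested, 2 rose and 0 fell (median log2 fold change 1.45), against 9.43% of all genes tested called higher. Lmo1 rose from 83.0 ± 18.9 to 234.9 ± 13.0 CPM (mean ± SD, n = 3 each), which is a log2 fold change of 1.501 ± 0.29 (SE, with an edgeR adjusted p = 0.00988), a call lost when control replicate 3 was left out (edgeR adjusted p = 0.0653). Ssbp2 rose by 1.45 ± 0.40 on the log2 scale (SE, with an edgeR adjusted p = 0.0335), a call kept without control replicate 2 and lost without any other one library (edgeR adjusted p up to 0.141). Lmo4 and Ssbp3 showed log2 fold changes of 2.94 ± 0.97 and 0.88 ± 0.36 (SE, with an edgeR adjusted p = 0.0599 and 0.111). Lmo4, with 2, 3 and 8 counts in control replicates 1, 2 and 3, passed the count filter through the arsenite libraries alone. A gene of its level could only enter by being higher there, and its value counts toward the median of 1.45. Ldb1 itself was low, at 4.74 ± 1.79 and 3.70 ± 1.10 CPM (SD, n = 3 each), with overlapping groups. Of the 12 genes of the LIM homeodomain family, Lhx8 included, 6 were tested and 0 passed edgeR, with a median log2 fold change of 1.74 and all 6 above 0. DESeq2, run on all 18649 rows with no count filter beforehand, called 2 of them higher, among 1747 genes it called higher. With limma voom 1 was called higher, among 1269 of the 12582 genes tested. Lhx8 itself was called by both, so that limma voom called 0 of its relatives. Lhx1, Lhx2 and Isl1, all low in controls, had larger log2 fold changes than Lhx8 (2.21, 2.02 and 2.75). Their groups did not overlap either, as for 21.9% of genes tested with arsenite higher. Like Sohlh2, all of these relatives passed the count filter through the arsenite libraries alone. Genes of their level could only enter by being higher there, and they count toward the family's median. Lhx6, the closest relative of Lhx8, had 0.80 ± 0.91 and 2.13 ± 1.63 CPM (SD, n = 3 each), with overlapping groups.

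**Figure D3:**
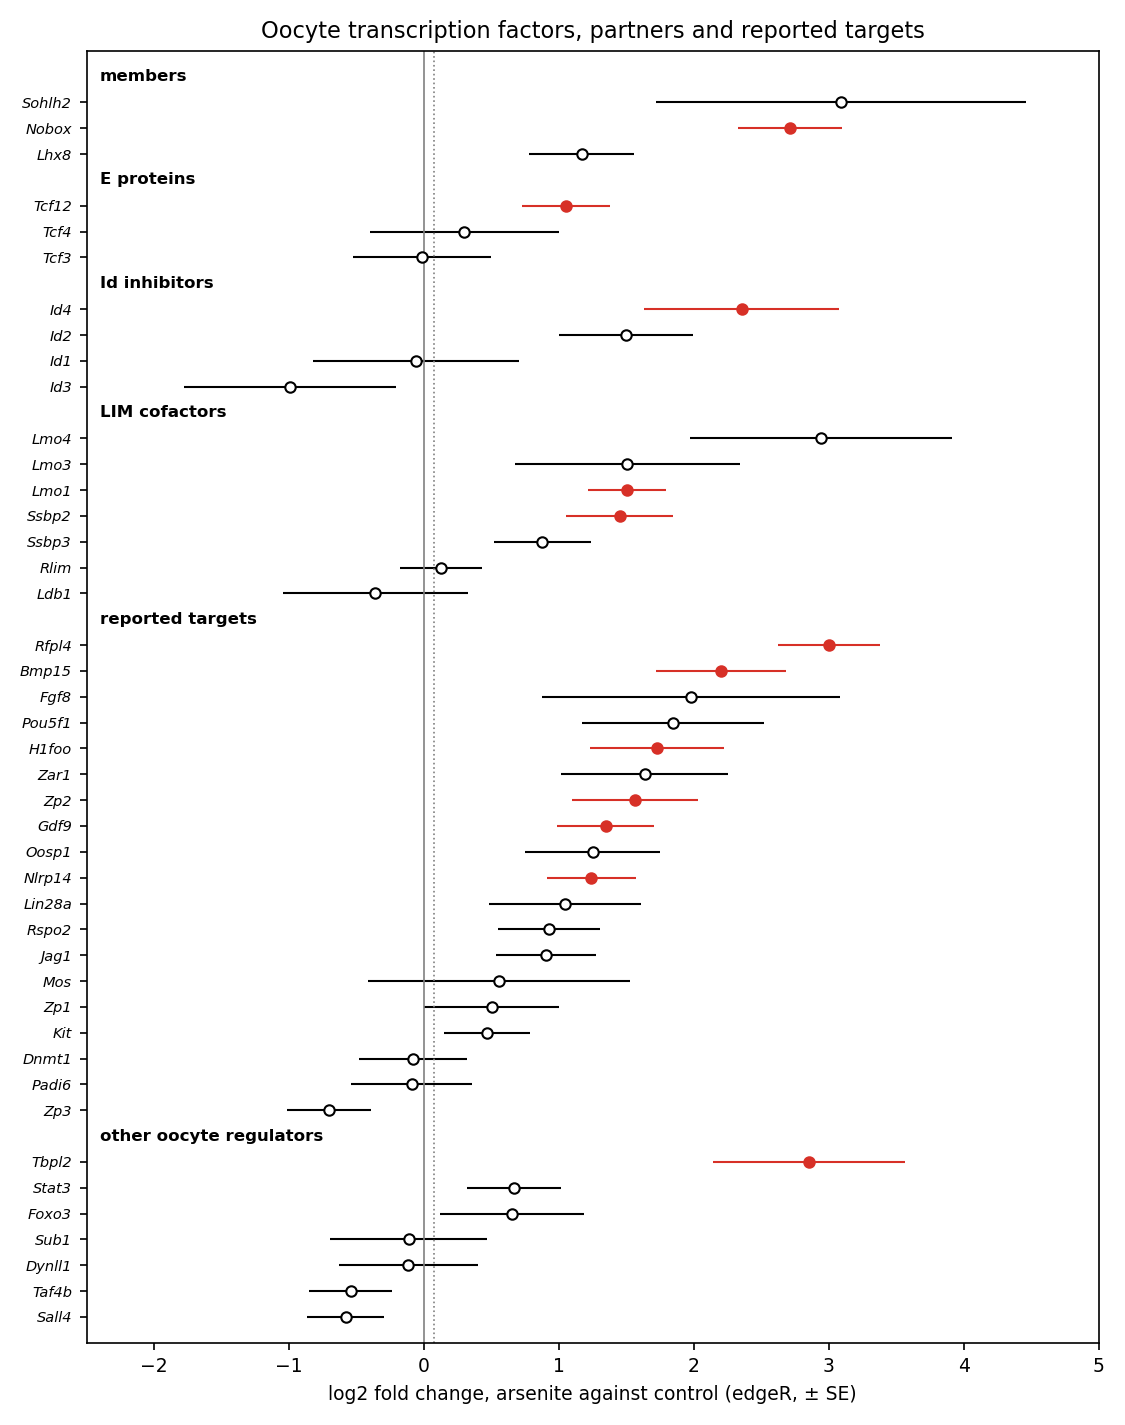
Fitted log2 fold change of arsenite against control with its SE for every tested gene of 6 lists, on a linear axis. Filled red points passed an edgeR adjusted p under 0.05, open points did not, the solid line is 0 and the dotted line the median of all tested genes, 0.07. Nobox, Tcf12, Id4, Lmo1, Ssbp2, 6 reported targets and Tbpl2 are filled, all to the right.

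Among 19 genes reported as bound by one of the factors or as lower in mouse ovaries without one, all tested, 6 rose and 0 fell, with a median log2 fold change of 1.24. Of all genes tested 9.43% were called higher and 7.26% lower, with a median of 0.07. Such rises were not particular to the reported targets. Of 11 oocyte markers tested, which include the targets Zp3, Gdf9 and Bmp15, 5 rose and 0 fell (median 1.35). Of 10 2-cell markers tested, 6 rose and 0 fell (median 1.49). Rfpl4, an oocyte RING finger gene, had the smallest p of the 19 targets, with a log2 fold change of 3.00 ± 0.38 (SE, with an edgeR adjusted p = 0.00416). The growth factor genes that oocytes use to signal to granulosa cells were among those that rose. Bmp15 stood at 577, 146 and 273 CPM in control replicates 1, 2 and 3 and, with arsenite, at 2002, 1553 and 1028 CPM (edgeR adjusted p = 0.0154). Gdf9 stood at 76.5, 84.1 and 50 CPM in controls and at 170.4, 252.5 and 112.6 CPM with arsenite (edgeR adjusted p = 0.0310). Groups did not overlap for either gene, and Gdf9 was highest in arsenite replicate 2, as Nobox was, but Bmp15 in arsenite replicate 1. Nlrp14 and H1foo, an NLR family gene and the oocyte linker histone (H1foo named after its values were seen), had rises of 1.24 ± 0.33 and 1.73 ± 0.50 in log2 units (SE, with an edgeR adjusted p = 0.0304 and 0.0392).

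Of the 6 reported targets that rose, the calls of 5 depended on single libraries. Rfpl4 kept its call without any one library (edgeR adjusted p up to 0.0323). Bmp15 lost its call without control replicate 3 or arsenite replicate 1 (edgeR adjusted p up to 0.0734), and Nlrp14 without these or control replicate 2 or arsenite replicate 2 (edgeR adjusted p up to 0.140). Gdf9 and H1foo kept theirs only without arsenite replicate 3 (edgeR adjusted p up to 0.145 and 0.174 without the others). Over the 6 fits that each leave out one library, 1 to 5 of the 19 rose, where 217 to 930 of all genes were called higher. With the block 8 rose, where 13.4% of genes tested were called higher. With scaling by library size only 3 rose, where 930 of 12582 genes were called higher. There Zp2, Gdf9 and H1foo lost their calls (edgeR adjusted p = 0.0559, 0.0560 and 0.0566). Pou5f1, the pluripotency factor that NOBOX binds at in mouse oocytes, had 2.20 ± 0.23 and 7.93 ± 3.602 CPM (mean ± SD, n = 3 each, with an edgeR adjusted p = 0.0815). Cyp11a1, an enzyme of steroid synthesis and marker of cumulus cells, was singled out after its values were seen. It was at 0 in each control and at 2.04, 2.62 and 3.36 CPM in arsenite replicates 1, 2 and 3. It passed the count filter through the arsenite libraries alone, so it could only be called higher, as it was (also in 1 of the 6 fits without one library). Of the 6 cumulus and granulosa markers tested, Cyp11a1 included, 3 had a log2 fold change above 0 and 3 below. The part of Cyp11a1 in these results was not tested.

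The 3 zona pellucida genes, the direct targets of FIGLA, encode the coat of the egg. Zp2 rose from 39.9, 18.1 and 10.1 CPM in control replicates 1, 2 and 3 to 76.4, 66.4 and 58.6 CPM in arsenite replicates 1, 2 and 3 (log2 fold change 1.56 ± 0.47, SE, edgeR adjusted p = 0.0439). Its call was kept without control replicate 1 and lost without any other one library (edgeR adjusted p up to 0.143). Zp3, which encodes a coat protein, stood at 76.9, 80.4 and 102 CPM in controls and at 56.2, 39.9 and 63.1 CPM with arsenite. The 3 arsenite libraries lay below the controls, as for 19.7% of genes tested, and the log2 fold change of −0.71 ± 0.31 (SE) did not pass (edgeR adjusted p = 0.136). Zp1 overlapped between groups, at 15.9 ± 8.84 and 22.5 ± 6.30 CPM (SD, n = 3 each).

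The ratio of Zp2 to Zp3 counts, chosen after their values were seen, was 0.518, 0.225 and 0.0992 in control replicates 1, 2 and 3, and with arsenite 1.36, 1.66 and 0.928. It did not overlap between groups (mean log2 ratio −2.15 ± 1.19 and 0.36 ± 0.43, SD, n = 3 each, two-sided exact permutation p = 0.1, the smallest possible, and 0.1 adjusted over 2 ratios). The Zp3 promoter is shown because it holds 3 E-boxes, at −181, −134 and −55, the first of them CACGTG.
Zp3, chr5:135979855-135980104, plus strand: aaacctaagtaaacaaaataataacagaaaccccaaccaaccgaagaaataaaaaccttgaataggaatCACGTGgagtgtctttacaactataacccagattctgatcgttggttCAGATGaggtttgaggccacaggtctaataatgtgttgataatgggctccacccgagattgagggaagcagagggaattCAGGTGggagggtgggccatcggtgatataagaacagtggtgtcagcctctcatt
Of the 19 reported targets 11 had a promoter in the RefSeq table, and in the first window listed for each gene, the one also used for the shares of all promoters, 8 held CANNTG. Dnmt1 held it in other listed windows only. A single one, that of Bmp15, held TAATTA. None of the 11 (0) held TAATTG, while 3 held TGATTG.

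Of 10 other nuclear regulators of oocytes and female germ cells 7 were tested, 1 rose and 0 fell (median log2 fold change −0.11), a share close to the 9.43% of all genes tested called higher. Tbpl2, the oocyte form of the TATA-binding protein, rose from 3.04 ± 2.102 to 22.0 ± 14.1 CPM (SD, n = 3 each), which is a log2 fold change of 2.85 ± 0.71 (SE, with an edgeR adjusted p = 0.0243). It lost its call without control replicates 2 or 3 or arsenite replicate 1 (edgeR adjusted p up to 0.124). Sall4, Taf4b and Stat3 had log2 fold changes of −0.58 ± 0.28, −0.54 ± 0.31 and 0.67 ± 0.35 (SE), none past the threshold (edgeR adjusted p = 0.174, 0.238 and 0.199).

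Profiles were compared as the root mean square difference of log2 CPM, each gene centred on its mean over the 6 libraries, among 8963 (Nobox and Lhx8) or 8964 (Sohlh2) other tested genes of at least 5 CPM with names other than clone or model numbers. For Nobox the most alike was Btg4, which brings a deadenylase to maternal mRNA, at 0.11, against a median of 1.45 over all candidates. Nr2e1 and Bach2, a nuclear receptor and a bZIP repressor, followed at 0.18 and 0.20. Btg4 was, like Nobox, lowest in replicate 3 and highest in replicate 1 among controls and in replicate 2 among arsenite libraries. For Lhx8 the most alike were Crbn, Cept1 and Ttk, each at 0.13 or 0.14 against a median of 0.90, and for Sohlh2 Tsc22d3, Diras2 and Tpp1 at 0.21, 0.23 and 0.29 against a median of 2.02. Nobox and Lhx8 differed by 0.87 on this measure, Nobox and Sohlh2 by 0.96, and Lhx8 and Sohlh2 by 1.40. The 6 libraries fall into 2 groups, so likeness here follows the group difference first.

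**Figure D4:**
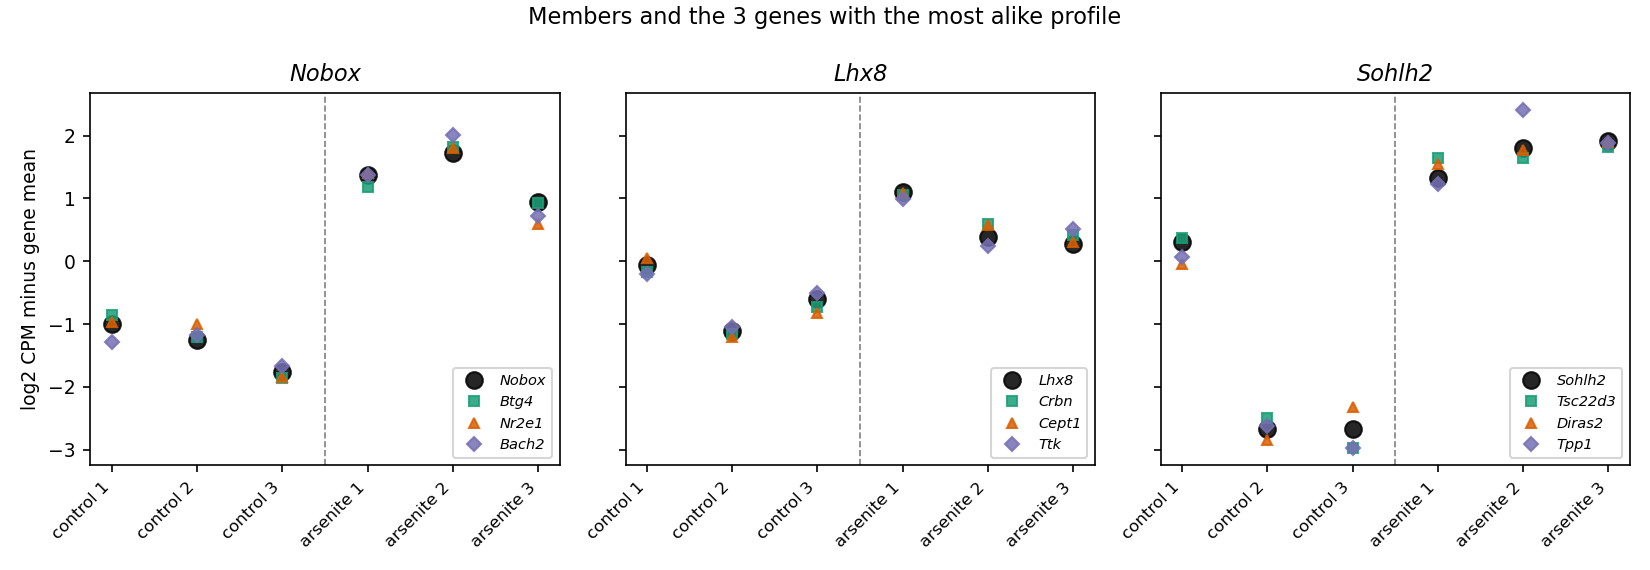
Log2 CPM of Nobox, Lhx8 and Sohlh2 in each library, centred on each gene's mean over the 6 libraries, with the 3 genes most alike to each. A dashed line parts controls from arsenite libraries. Among controls Nobox is lowest in replicate 3 and Lhx8 in replicate 2, and among arsenite libraries Nobox is highest in replicate 2 and Lhx8 in replicate 1.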

How the data were processed

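The deposited table gives each gene symbol's raw read count, a whole number, in every library, and groups and replicate numbers came from the sample titles. Per the submitters' processing notes the build was mm10, and DESeq2 1.30.1, featureCounts 1.6.2, StringTie 2.1.4 and STAR were used, with no role given. Annotation and strand setting were not given in the sources used here, and reads on opposite strands therefore cannot be told apart. The labels' protocols describe PCR preamplification of cDNA and 2 different library kits and mention no molecular identifiers, so floors cover counting error only.

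Of 18660 rows, 11 whose symbol had become a date were left out. Counts were tested in R 4.3.3 with edgeR 4.0.16 (TMM, default filterByExpr, quasi-likelihood F-test, two-sided, no covariate, Benjamini-Hochberg adjustment over 12582 genes), after a check on simulated data. Alternatives were DESeq2 1.42.0, limma voom 3.58.1, other scalings, no filter, the replicate block, omission of each library and of the 20 most abundant genes. Deviations from group means correlated at 0.189, 0.221 and 0.178 for same-numbered libraries, across genes, and at −0.164 to −0.0238 for the others. Part of this contrast is arithmetic, since the deviations of a group sum to 0. A fit with the number as a block is therefore given beside the main, unpaired fit, although what a number stands for is not in the labels. No libraries agreed within sampling noise (chi-square per degree of freedom at least 31.8). Exon lengths came from GENCODE M21, positions and promoters from RefSeq on GRCm38.p6. Members and lists were chosen with earlier results of these data known, the lists from general knowledge. Named genes were the members, the 4 of each list with the smallest p, the 3 most alike profiles and a fixed set of partners and targets. Lists are described by counts and medians, with no set test.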

Additional observations from a re-analysis of the deposited data

How the results depend on the processing

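Nobox rose in each alternative run (log2 fold change 2.43 to 2.90), and no value of Nobox, Lhx8 or Sohlh2 changed sign. Scaling by library size only took the median over all genes from a log2 fold change of 0.07 to −0.05, so directions are relative to the TMM scale, and it called 930 genes higher and 1070 lower (46.5% higher) against 1187 and 914 (56.5%). Genes called numbered 2101, but 3294 with DESeq2 (1547 lower) and 3268 with the replicate block (1586 lower). Leaving out one library gave 405 to 2002 calls, 217 to 930 of them higher and 180 to 1072 lower. Factors called higher numbered 1, where 9.43% of all genes tested were called higher. They numbered 2 with DESeq2 (1747 genes called higher of 18649 rows) and 2 with the block (1682 of 12582, or 13.4%). With limma voom they numbered 3 (1269 of 12582), and without one library 1 to 2 (217 to 930 genes called higher). Lhx8 passed with DESeq2 (log2 fold change 1.14, adjusted p = 0.0399), limma voom (1.19, adjusted p = 0.0490) and the block (1.18), and in no fit without one library (0.84 to 1.46). Sohlh2 passed with limma voom (4.74, adjusted p = 0.0475) and without control replicate 1 (8.29, a fitted value that depends on the prior count since the other controls are at 0), with a range of 2.46 to 8.29 without one library. The cause was not tested, but fits without a library hold fewer samples. Of 585 values for 45 other listed genes, 524 kept their side of the threshold, 52 lost it, 9 gained it and 0 of the called ones reversed. Tcf12 and Id4, with adjusted p close to 0.05, also lost their calls with DESeq2 size factors in edgeR (adjusted p = 0.0514 and 0.0511) and with library size only (0.0721 and 0.0722), where Ssbp2 (0.0629), Zp2, Gdf9 and H1foo lost theirs too, so that 3 and not 6 reported targets rose. Levels of the factors per kb moved by less than the spread between replicates with the longest transcript as length. Depth limits Figla and Sohlh1, with at most 14 counts in a library.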
